A study of Mus musculus with 6 samples.

Results

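The genes described here are the 7 named genes of the Dlk1-Dio3 imprinted region of mouse chromosome 12: Begain, Dlk1, Meg3, Rtl1, Rian, Mirg and Dio3. They were taken by symbol from a count table of 24594 entries, and all 7 had an entry. Of these, 5 passed the filter on low counts, while Dlk1 and Dio3 did not. The genes were chosen with their genotype differences already known, so their differences are given as a description. How many of them the fit across all genes called is counted further on, and that count supports nothing either.

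RNA-seq counts were made from the nuclear RNA of NeuN-positive nuclei sorted from the cerebellum of mice aged 7 months. The groups were 3 libraries of genotype Ezh1(wt/wt);Neurod1-Cre (WT) and 3 of genotype Ezh1(cKO/cKO);Neurod1-Cre (cKO). All 6 therefore carried Neurod1-Cre, in which the Neurod1 gene, active in granule neurons, gives the recombinase its name, and no group lacked it. The sample titles carry the abbreviation GC. Sorted nuclei of cells in which this Cre was not active would keep Ezh1, and their share was not measured. The product of Ezh1 is among the alternative enzymes of PRC2, which methylates lysine 27 of histone H3, and the study asks whether neurons that no longer divide need that mark for the control of their genes.

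In this region, methylation of a control element between Dlk1 and Meg3 on the paternal chromosome sets which parental copy is used. Dlk1, Rtl1 and Dio3 are proteins made mainly from the paternal copy, and Meg3, Rian and Mirg are noncoding RNAs made from the maternal copy. The noncoding RNAs follow each other on the same strand, stay largely in the nucleus, and carry small nucleolar RNAs and a large cluster of microRNAs in their introns and between them. The counts do not distinguish parental copies.

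The libraries held 6340236 to 8284768 counts. Ezh1 was lower in cKO, without overlap between genotypes (53.0 ± 2.35 against 76.6 ± 6.17 counts in 1000000, CPM; SD, n = 3 each; log2 fold change -0.53, SE 0.10, edgeR adjusted p = 0.00672). Which exons of Ezh1 were removed is not stated in the labels. Nor do they say that libraries came from separate animals, so a spread or p-value measures only how these samples differ, possibly for technical reasons. Xist was at 812 CPM in WT replicate 1 and 831 CPM in cKO replicate 1, against 1.39 to 4.46 CPM in the others, so each genotype held 1 library that stood apart in this way. All 10 granule cell markers were tested, 1 of them (Neurod1) was called, higher in cKO, and their sum ran from 3707 to 3848 CPM in WT and from 3646 to 4377 CPM in cKO. In bulk counts, fewer cells of a type and less RNA per cell cannot be told apart.

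Meg3 held most of the reads of the locus. The gene lies at chr12:109540996-109571729 (GRCm38), on the plus strand, and its entry took 0.683% of a WT library and 0.808% of a cKO library on average. Meg3 was at 7057, 6566 and 7084 CPM in WT replicates 1, 2 and 3 and at 8500, 7976 and 7475 CPM in the cKO replicates. Each cKO library was above each WT library, and cKO replicate 3 lay closest to WT. The means were 6902 ± 292 CPM in WT and 7984 ± 513 CPM in cKO (SD, n = 3 each). The log2 fold change was 0.21 (SE 0.06, 95% interval 0.10 to 0.32), a difference of 1.16-fold.

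The promoter of Meg3 is shown because it is the start site nearest the imprinting control element and the noncoding RNAs that follow it had positive fold changes. The window, from RefSeq on GRCm38.p6, covers chr12:109540746-109541045 on the plus strand, from 250 bases before to 50 after the start, and capitals mark matches to the 4 motifs searched.
Meg3: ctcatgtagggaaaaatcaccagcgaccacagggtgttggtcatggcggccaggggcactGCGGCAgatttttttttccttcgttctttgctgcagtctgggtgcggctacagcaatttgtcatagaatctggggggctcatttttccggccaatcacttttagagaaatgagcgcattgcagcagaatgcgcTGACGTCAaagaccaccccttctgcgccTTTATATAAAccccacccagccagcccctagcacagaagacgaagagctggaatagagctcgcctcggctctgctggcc
Rian: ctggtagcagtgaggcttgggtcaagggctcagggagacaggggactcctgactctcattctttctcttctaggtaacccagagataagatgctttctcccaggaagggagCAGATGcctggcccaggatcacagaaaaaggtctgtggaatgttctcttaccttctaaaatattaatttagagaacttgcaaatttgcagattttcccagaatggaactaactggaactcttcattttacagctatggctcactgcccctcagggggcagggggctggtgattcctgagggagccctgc
The Rian window (chr12:109603695-109603994, plus strand) is shown beside it for contrast. The motifs, on both strands, were TGACGTCA (the cyclic AMP response element), TATAAA (the TATA box), TGCCGC (bound when methylated by the imprint protein ZFP57) and CAGATG (an E-box of the kind NeuroD factors bind).

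The Meg3 window held TGACGTCA at positions -57 to -50 from the start, where the first base of the gene is 0. Over all 32544 promoter windows of this length 1.80% hold that motif. TATAAA was present on the plus strand at -25 to -20 and on the minus strand at -29 to -24, the latter overlapping the former, and 13.6% of windows hold it. TGCCGC lay on the minus strand at -190 to -185 (11.7% of windows). CAGATG was not among its letters and is in 17.1% of windows. The Rian window held CAGATG alone, at -139 to -134. The Meg3 window had 13 CpG dinucleotides and the Rian window 0, against a median of 7 over all windows. The Mirg window had none of the 4 motifs and 10 CpG dinucleotides. Begain, at its 5 windows, had 34 to 46 CpG dinucleotides and none of the motifs. The Dlk1 window had 9 and none of the motifs, and the Dio3 window had 25, with TATAAA at -31 to -26 and CAGATG at -1 to 4. RefSeq's table had no window for Rtl1.

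Rian, the noncoding RNA that hosts box C/D small nucleolar RNAs (chr12:109603945-109661716, plus strand), was at 412, 364 and 378 CPM in WT replicates 1, 2 and 3. In the cKO replicates it was at 549, 450 and 492 CPM. The genotypes did not overlap, and replicate 1 was the highest library of each. The log2 fold change was 0.37 (SE 0.08, 95% interval 0.21 to 0.53), with means of 385 ± 25.0 CPM in WT and 497 ± 49.6 CPM in cKO (SD, n = 3 each).

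Mirg, the noncoding RNA at the far end of the microRNA cluster (chr12:109734981-109749458, plus strand), was at 119, 96.7 and 80.8 CPM in WT replicates 1, 2 and 3. In the cKO replicates it was at 144, 134 and 109 CPM. The genotypes overlapped here, since cKO replicate 3 lay below WT replicate 1. Its log2 fold change of 0.39 (SE 0.14, 95% interval 0.08 to 0.70) was close in size to that of Rian, with a wider interval.

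Rtl1, a protein-coding gene derived from a retrotransposon that is needed in the placenta and lies on the minus strand, opposite to the noncoding RNAs, was at 121, 94.9 and 125 CPM in WT replicates 1, 2 and 3. It was at 173, 147 and 153 CPM in the cKO replicates, so that the genotypes did not overlap. The log2 fold change was 0.47 (SE 0.10, 95% interval 0.27 to 0.67), with means of 114 ± 16.3 CPM in WT and 158 ± 13.9 CPM in cKO (SD, n = 3 each). RefSeq gives Rtl1 a span of chr12:109564900-109604418, which shares 6830 bases with Meg3 and 474 with Rian. GENCODE M21 draws it shorter, from 109589193 to 109600330, outside both. The use of strand in counting is not known here, so reads of Rtl1 and reads of maternal noncoding RNA running through it on the other strand cannot be told apart.

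The remaining 3 protein-coding genes were low. Begain encodes a partner of the postsynaptic scaffold PSD-95 and lies at -508.8 kb from the start of Meg3 (chr12:109032181-109068242, minus strand). Begain was at 18.7, 22.8 and 20.8 CPM in WT and at 20.9, 23.6 and 22.5 CPM in cKO, so the genotypes overlapped. Its log2 fold change was 0.10 (SE 0.15), and its 95% interval of -0.20 to 0.40 includes values as large as that of Rian. Dlk1, a membrane protein with EGF-like repeats that acts on Notch signalling and on fat cell formation (chr12:109452485-109463336, plus strand), had 2, 0 and 0 counts among WT replicates and 0, 0 and 3 in cKO. Dio3, the deiodinase that inactivates thyroid hormone (chr12:110279230-110281097, plus strand), had 1 count in WT replicate 1 and 0 in the other libraries. A count of 0 allows up to 3 counts, which is 0.362 to 0.473 CPM in these libraries (counting error only). The counts of both genes were at or below 3 in every library, though a count of 2 or 3 allows more than that limit. No fold is given.

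**Figure D1:**
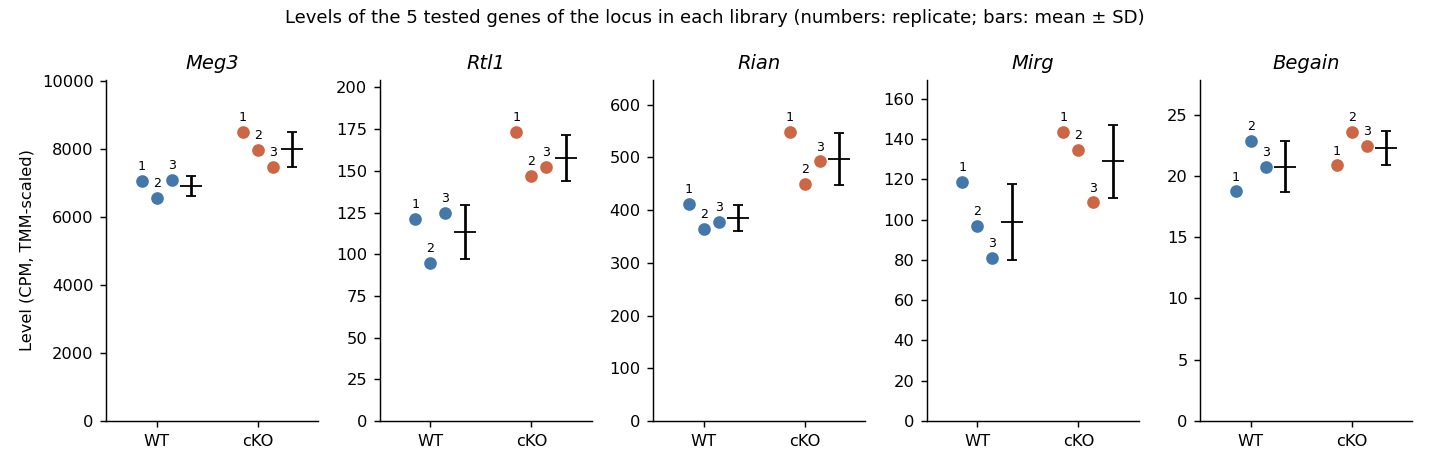
Level in CPM (y axis from 0, a scale of its own in each panel) of the 5 tested genes in each WT and cKO library, with points numbered by replicate and bars for the mean ± SD of 3 libraries. For Meg3, Rtl1 and Rian every cKO point is above every WT point, while Mirg and Begain overlap.

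By count, 3 of the 5 tested genes had every cKO library above every WT library, and 2, Rtl1 and Rian, passed an adjusted p of 0.05 in edgeR, both higher. Over all 13115 genes tested, 7.91% were separated upward and 8.40% downward, and 0.328% were called higher and 0.259% lower. DESeq2 and limma-voom each called 3, the third being Meg3. Since the genes were chosen from this comparison, nothing is read from these shares. Because replicate 1 of each genotype stood apart in Xist, the ratio of cKO to WT is given within it and without it, over the same libraries and as no further support. The 4 genes from Meg3 to Mirg had ratios above 1 within replicate 1 (1.20-fold for Meg3, 1.43-fold for Rtl1, 1.33-fold for Rian, 1.21-fold for Mirg) and within replicates 2 and 3 (1.13, 1.36, 1.27 and 1.37-fold). The call of Rian and that of Rtl1 were absent without WT replicate 2, WT replicate 3 or cKO replicate 1, and that of Rian also without cKO replicate 3.

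Per kb of GENCODE exon, the level in WT was 382 CPM for Meg3, 21.1 for Rian, 17.9 for Rtl1, 13.5 for Mirg and 4.71 for Begain. In cKO these exon-scaled levels were 441, 27.2, 24.8, 17.7 and 5.06 CPM per kb, in the same order. Per kb of the whole gene span the order of Rian and Mirg was not clear (6.66 and 6.82 CPM per kb in WT), and Rtl1 was lower than both (2.87). The files do not say over which exons reads were counted.

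The locus as a whole, from Begain to Dio3 with its small RNA entries, took 0.795%, 0.732% and 0.792% of the counts of WT replicates 1, 2 and 3. In the cKO replicates it took 0.992%, 0.925% and 0.852%. Within it, Meg3 held 87.8% to 88.9% of the counts among WT replicates and 87.2% to 88.1% in cKO. The counts of Rian per 100 counts of Meg3 were 5.84, 5.54 and 5.33 in WT and 6.45, 5.64 and 6.59 in cKO, so this ratio overlapped between genotypes. Rtl1 stood at 1.71, 1.44 and 1.76 counts per 100 of Meg3 in WT and at 2.04, 1.84 and 2.04 in cKO, without overlap. Mirg stood at 1.14 to 1.68 in WT and 1.45 to 1.69 in cKO.

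Across the 6 libraries, log2 CPM of Meg3 correlated with that of Rtl1 (r = 0.94), Rian (0.90) and Mirg (0.78). The genotype difference and the scaling of each library enter all of these values. As deviations from genotype means the same values were 0.79, 0.59 and 0.48, and that of Rtl1 with Mirg was 0.11. Begain had r = 0.11 with Meg3, and -0.65 in deviations from genotype means. Over 7743 genes with at least 10 CPM outside chromosome 12, the log2 CPM values most like those of Meg3 were St8sia1 (r = 0.998), Herc1 (0.992) and Rnf217 (0.989). For Rian they were Usp29 (0.994), Spns2 (0.991) and Dpp10 (0.991). In deviations from genotype means the nearest to Meg3 were Casp8ap2 (0.997), Usp6nl (0.996) and St8sia1 (0.994), and to Rian Dlg2 (0.995), Stx2 (0.995) and Dpp10 (0.995). These values are over 6 libraries only and share their scaling. Each is among the 3 highest of 7743 genes, so it is high by selection, and no relation between the genes is read from it.

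Between Begain and Dio3 the table held 68 further entries: 61 microRNA genes, 5 small nucleolar RNA genes and 2 long noncoding RNA genes. They matter here because the library kit made cDNA of long RNA, so reads over a hairpin may be of the long transcript around it and are no measure of the mature microRNA. Entries that overlap an exon of Rtl1 in GENCODE were at 0 in all libraries (7 of 7, among them Mir127, Mir136, Mir431 and Mir434). Of all 18 microRNA entries on an exon of Meg3, Rtl1, Rian or Mirg 12 were at 0, against 4 of the 43 elsewhere. The rule for reads shared by overlapping genes is not known here.

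Mature sequences from RefSeq (GRCm38.p6) are printed for the 5 microRNA entries with an unadjusted p below 0.05 in the test below, for Mir379, which opens the cluster after Rian, and for Mir1906-1 inside Meg3, with the seed (bases 2 to 8) in capitals. All 61 microRNA entries matched that table, with 113 mature names and 104 seeds.
mmu-miR-666-5p: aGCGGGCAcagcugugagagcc
mmu-miR-666-3p: gGCUGCAGcgugaucgccugcu
mmu-miR-679-5p: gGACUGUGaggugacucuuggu
mmu-miR-679-3p: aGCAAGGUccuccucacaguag
mmu-miR-411-5p: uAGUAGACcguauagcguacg
mmu-miR-411-3p: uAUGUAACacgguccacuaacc
mmu-miR-379-5p: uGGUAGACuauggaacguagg
mmu-miR-379-3p: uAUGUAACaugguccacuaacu
mmu-miR-1188-5p: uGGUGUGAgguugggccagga
mmu-miR-1188-3p: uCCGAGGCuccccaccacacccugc
mmu-miR-376c-5p: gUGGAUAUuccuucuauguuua
mmu-miR-1906: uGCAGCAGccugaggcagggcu
Of these, miR-411-3p and miR-379-3p share the seed AUGUAAC. The seed of miR-376c-5p is shared with miR-376b-5p, and that of miR-379-5p with miR-1193-5p. In all, 9 seeds were shared by at least 2 names of the locus. The mature sequence of miR-1906 is listed at 2 places, inside Meg3 and on the X chromosome.

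Of the 68 entries 20 were tested, and edgeR called 0 of them. At an unadjusted p below 0.05 there were 6, all higher in cKO, where 11.9% of all genes tested reached that level in either direction. Of these 6, Mir666 (0.60 to 1.11 CPM in WT, 2.32 to 3.39 in cKO), Mir411 (0.30 to 1.09, 1.70 to 3.31) and Mir376c (0.98 to 1.36, 2.01 to 3.02) passed the filter on low counts through their cKO libraries. Mir679 also needed its cKO libraries to pass (2.72, 0.98 and 1.34 CPM in WT, 3.85 to 5.33 in cKO). The filter therefore in part sets the direction of such entries, and nothing is read from their count. DESeq2 called 1, the small nucleolar RNA entry AF357425 inside Rian, and limma-voom called 0. Reads of these entries may come from the noncoding RNAs above and are not independent of them.

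Mir666 had 4, 8 and 6 counts among WT replicates and 17, 15 and 22 in cKO, with no overlap between genotypes (0.82 ± 0.27 against 2.72 ± 0.58 CPM; SD, n = 3 each). Its log2 fold change was 1.71 (SE 0.50, edgeR adjusted p = 0.122). Mir679 had 18, 7 and 11 counts among WT replicates and 37, 25 and 25 in cKO, also without overlap (log2 fold change 1.39, SE 0.42, adjusted p = 0.136). Neither passed the threshold, and both were tested only because their cKO libraries passed the filter on low counts. Both lie between Rian and Mirg, outside annotated exons of the named genes (Mir666 at chr12:109717085-109717183, Mir679 at chr12:109715577-109715650, GRCm38). The next entries by p, named after their values were seen, were AF357425 (425, 358 and 458 counts in the WT libraries against 679, 461 and 430 in cKO; adjusted p = 0.142) and Mir411 (2, 3 and 9 against 23, 11 and 12; adjusted p = 0.153). Mir667, which was below the filter and is also named after its values were seen, had 0 counts in each WT library and 12, 2 and 7 in cKO. Other entries below the filter went the other way, such as Mir381 (8, 9 and 7 counts in WT against 5, 7 and 4) and Mir487b (9, 3 and 7 against 8, 2 and 0).

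By position the small RNA entries differed in size of difference. The grouping was made after the values were seen and is given with no test. The 30 microRNA entries between Rian and Mirg, a stretch in which the table held no other entry, summed to 18.9, 15.9 and 18.4 CPM in WT replicates 1, 2 and 3. In cKO they summed to 39.1, 32.4 and 30.0 CPM, which is 1.91-fold higher by the means. Of these entries, 22 had a higher mean in cKO and 4 a lower one, and 4 had no counts. Only 7 of the 30 passed the filter on low counts. Over all genes tested, 48.8% had a positive fold change, a share that leaves out entries below the filter and is not a like measure. Without the entries that overlap a GENCODE exon of Mirg, 26 remained, with a ratio of 1.90. The 8 entries within the Rian span summed to 77.2 ± 12.1 CPM in WT and 107 ± 20.3 CPM in cKO (1.39-fold). Only 5 of these 8 had counts, and AF357425 alone made up 56.6 CPM of the sum in WT and 78.4 CPM in cKO. Within the Mirg span 10 entries summed to 8.47 ± 0.45 CPM in WT against 11.8 ± 1.95 CPM (1.39-fold). In these 3 stretches every cKO library was above every WT library, which held for 7.91% of all genes tested. The 15 between Meg3 and Rian summed to 21.4 ± 2.17 and 25.1 ± 4.37 CPM (SD, n = 3 each), with overlapping libraries.

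Of the 20 tested entries 2 had a negative fold change, Mir540 and Mir1906-1. Mir540 had 31, 31 and 39 counts among WT replicates and 39, 18 and 23 in cKO (log2 fold change -0.20, edgeR adjusted p = 0.866). Mir1906-1 lies in an exon of Meg3 at chr12:109544541-109544620, 3.5 kb after the start of Meg3. It had 1125, 1455 and 1228 counts among WT replicates and 1049, 1041 and 1028 in cKO (log2 fold change -0.15, SE 0.09, edgeR adjusted p = 0.563), and its CPM values overlapped. Per 100 counts of Meg3 it stood at 2.41, 3.09 and 2.10 in WT and 1.78, 2.01 and 2.12 in cKO. Where the aligner placed reads that also match its copy on the X chromosome is not known here, and that copy had no entry in the table.

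**Figure D2:**
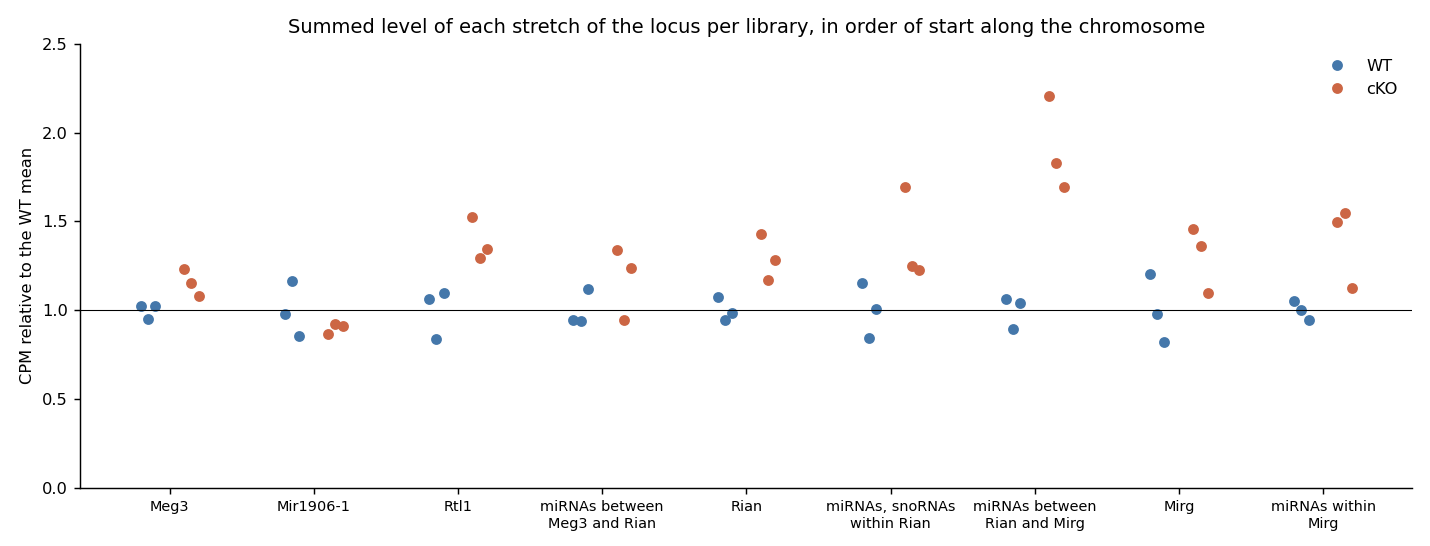
CPM of each gene, or the sum of each group of small RNA entries, divided by its WT mean (y axis from 0), for the 3 WT and 3 cKO libraries, with replicates 1 to 3 from left to right and stretches in order of start along the chromosome. The microRNA entries between Rian and Mirg lie farthest above 1 in cKO (mean ratio 1.91), and Mir1906-1 lies below 1 (0.90).

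Genes beyond the locus were compared to see where the positive fold changes ended. Over all genes tested, 48.8% were positive, edgeR called 0.587% and 11.9% reached an unadjusted p of 0.05. Within 1 Mb beyond Begain, 14 of 16 entries were tested, with 7 positive and 7 negative log2 fold changes (median 0.02). EdgeR, DESeq2 and limma-voom called 0 of them, and 0 reached 0.05 unadjusted. Named for their p-values alone are Ccdc85c, a coiled-coil protein (78.3 ± 0.39 CPM against 69.4 ± 5.23, log2 fold change -0.17, adjusted p = 0.473) and the noncoding RNA gene Gm16596 (9, 15 and 32 counts against 7, 10 and 9; -0.92 on the log2 scale, adjusted p = 0.488, and -0.40 without WT replicate 3). Within 1 Mb beyond Dio3, 14 of 17 entries were tested, with 13 positive and 1 negative (median 0.14). Signs on this side were mostly positive, but where the positive fold changes of the locus ended cannot be told from them. Dio3 itself and the entries between Mirg and Dio3 had too few counts to be tested. All 3 tools called 0 of these 14 entries too, and 2 reached 0.05 unadjusted. They were Traf3, an adaptor of tumour necrosis factor receptors (21.1 ± 2.46 against 28.9 ± 0.72 CPM, log2 fold change 0.46, adjusted p = 0.142), and B930059L03Rik (2.27, 2.37 and 2.79 CPM in WT against 4.32, 5.71 and 3.54 in cKO, log2 fold change 0.86, adjusted p = 0.326).

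**Figure D3:**
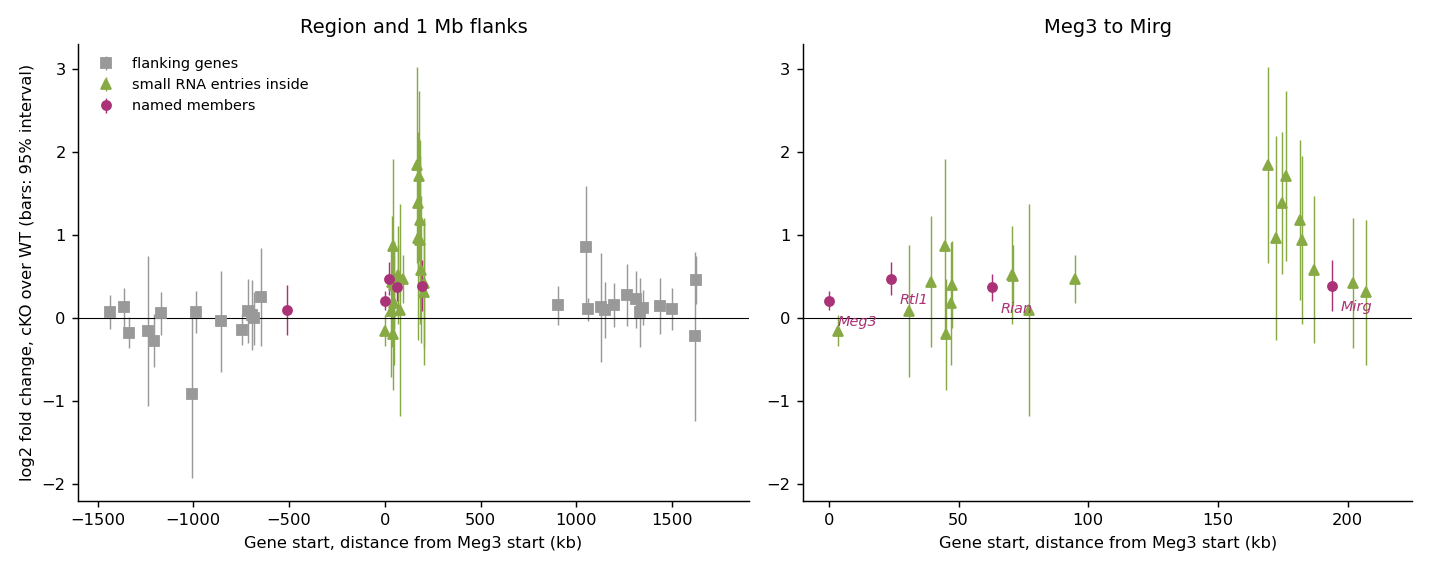
Log2 fold change of cKO over WT (points) with its 95% interval (bars) for each tested entry, by distance of its start from that of Meg3 in kb, over the region with its 1 Mb flanks (left) and from Meg3 to Mirg (right). Circles are the named genes, triangles the small RNA entries and squares the flanking genes. The circles from Meg3 to Mirg lie between 0.21 and 0.47.

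Genes that act on the imprint of the region or on the Meg3 promoter were not called. Over all genes tested, edgeR called 0.587% in either direction and 11.9% had an unadjusted p below 0.05. Nothing is therefore read from 0 calls in lists this short. Of 20 listed regulators of the imprint, such as Zfp57, Trim28 and the DNA methyltransferases, 18 were tested, with 0 called by edgeR, DESeq2 or limma-voom and 1 at an unadjusted p below 0.05 (median log2 fold change -0.03, 6 positive and 12 negative). That 1 was Tet1, an enzyme that oxidises methylated cytosine, at 48.3 ± 6.08 CPM against 40.6 ± 1.20 (-0.25, adjusted p = 0.401). The chromatin remodeller gene Atrx stood at -0.13 on the same scale (adjusted p = 0.514). Of 12 MEF2 and CREB family genes and their cofactors, 11 were tested, with 0 called by any of the 3 tools and 1 at an unadjusted p below 0.05 (median 0.00). This was Crebbp, a CREB coactivator (244 ± 12.2 against 277 ± 8.25 CPM, 0.18, adjusted p = 0.328). Creb1 itself had 0.20 (adjusted p = 0.655).

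Pathways in which Dlk1 and Dio3 act were compared as well, although both genes were near 0 here. The shares over all genes are again 0.587% called and 11.9% at an unadjusted p below 0.05. Of 34 Notch pathway genes 29 were tested, with 0 called by any of the 3 tools, 3 at an unadjusted p below 0.05 and a median of 0.00 (14 positive and 15 negative). Jag2, a Notch ligand, was at 25.5 ± 2.60 CPM against 35.8 ± 6.21 (0.49, adjusted p = 0.113), and the coactivator gene Maml3 had 0.28 (adjusted p = 0.339). Of 17 genes of thyroid hormone transport, conversion and response 13 were tested, again with 0 called by the 3 tools, 1 at an unadjusted p below 0.05 and a median of 0.06. The receptor gene Thra was at 134 ± 10.7 CPM against 117 ± 6.59 (-0.20, adjusted p = 0.355), and Hr, a corepressor gene, had 0.17 (adjusted p = 0.495).

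Markers of other cell types had counts in the sorted nuclei. Whether these counts came from nuclei of those cells, and what part they had in the differences above, was not tested. The summed markers of Purkinje cells were at 467 to 652 CPM in WT and 403 to 585 in cKO (0 of 6 called), those of inhibitory interneurons at 170 to 199 and 145 to 171 (0 of 7 tested called), and those of unipolar brush cells at 269 to 291 and 269 to 307 (0 of 3 tested called). Oligodendrocyte markers spanned 251 to 444 CPM in WT and 311 to 689 in cKO (0 of 8 called). Astrocyte and Bergmann glia markers spanned 70.3 to 93.1 and 66.2 to 83.0 CPM. Microglia (14.6 to 28.1 and 17.0 to 22.8 CPM), vessels with meninges (15.5 to 18.1 and 10.2 to 19.1) and choroid plexus (0.24 to 0.60 and 0.15 to 1.01) were low. The genotypes overlapped for each of these 8 sums, and none of their markers was at 0 in all libraries.

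**Figure D4:**
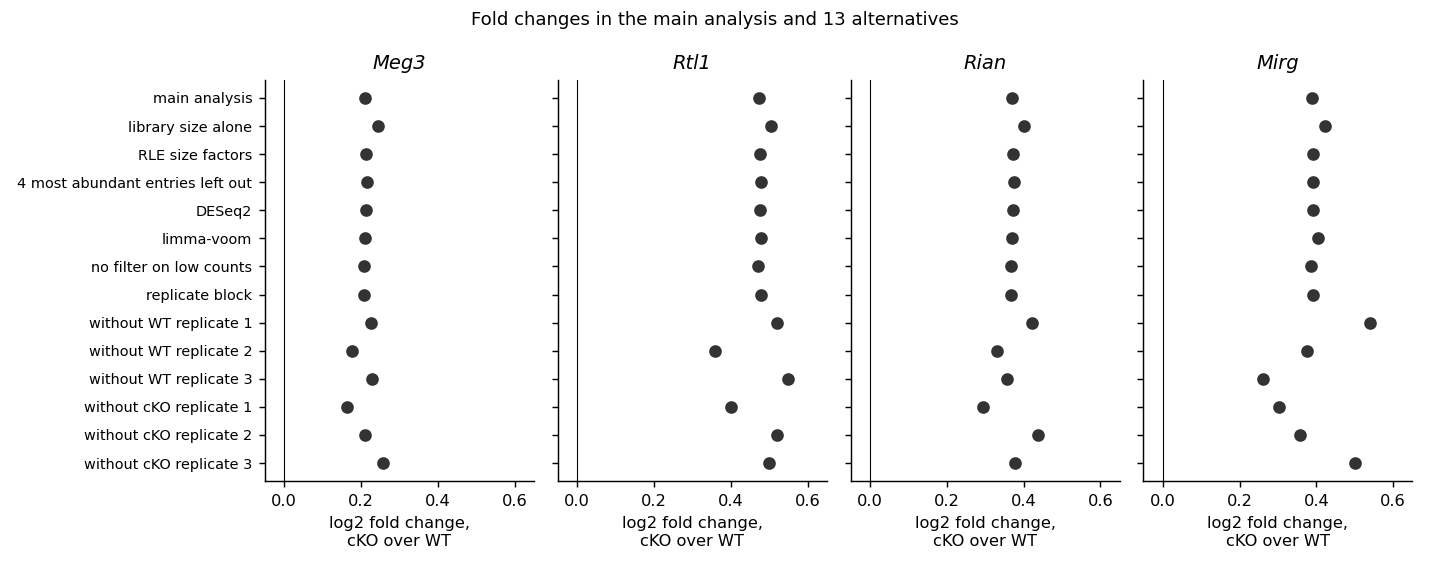
Log2 fold change of cKO over WT (x axis) of the 4 genes from Meg3 to Mirg in the main analysis and in each of 13 alternative analyses (y axis). All points lie above 0, from 0.16 for Meg3 without cKO replicate 1 to 0.55 for Rtl1 without WT replicate 3. The alternatives share the same libraries and give no further support.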

How the data were processed

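The authors deposited a table of raw counts (whole numbers) for 6 libraries of nuclear RNA, with genes named by NCBI identifier. Per the submitters' processing notes, Subread and the mm10 build were used. Version, annotation, strand setting and treatment of shared reads: not given in the sources used here. Of 24594 entries, 24570 matched RefSeq GRCm38.p6 (symbols, positions). Exons are from GENCODE M21.

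Counts were tested in R 4.3.3 with edgeR 4.0.16 (filterByExpr defaults, TMM, robust glmQLFit and glmQLFTest, genotype alone), over 13115 genes. A gene was called at a Benjamini-Hochberg adjusted p below 0.05, adjusted over all of them, two-sided. CPM uses totals with TMM factors (0.982 to 1.02), n = 3 per genotype. DESeq2 1.42.0 and limma-voom (limma 3.58.1) were alternatives. The script was tested on simulated data. The genes and lists were chosen with earlier results of these data known. Named are the 7 genes, all called or otherwise the 2 smallest p-values of each neighbour group, up to 3 called or otherwise the 2 smallest p-values of each list, and the 3 genes most like Meg3 and Rian by Pearson correlation (outside chromosome 12, mean of at least 10 CPM, predicted gene models passed over). A floor is 3 counts.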

Additional observations from a re-analysis of the deposited data

How the results depend on the processing

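The 5 tested genes of the locus kept a positive log2 fold change in all 13 alternatives. They also did so in replicate 1, or replicates 2 and 3, taken alone, a split chosen after seeing the data. All of these use the same 6 libraries. For Meg3, Rtl1 and Rian, whose genotypes did not overlap, leaving out libraries could hardly change the sign, so nothing is read from it. Meg3 ranged from 0.16 to 0.26, Rian from 0.29 to 0.44, Rtl1 from 0.36 to 0.55, Mirg from 0.26 to 0.54 and Begain from 0.03 to 0.17. The number of them called higher was 2. It was 4 with no filter on low counts and 0 to 3 without single libraries (0 without WT replicate 2, WT replicate 3 or cKO replicate 1). Of the other entries inside the region 0 were called higher. There was 1 with DESeq2, 1 with the replicate block, 2 with no filter (AF357425 and Mir667) and 0 to 2 without single libraries. With no filter 1 Notch pathway gene (Jag2) was higher and 1 Begain partner (Homer3) lower, and 0 to 1 Notch genes were higher without single libraries. Over all genes 43 were higher and 34 lower. These counts were 69 higher with library size alone, 56 lower with DESeq2, 146 higher and 131 lower with no filter, and 10 to 116 higher and 3 to 133 lower without single libraries. Meg3 held 87.9% of the locus counts, 93.1% of those of Meg3, Rian and Mirg, and 5.70% per kb of span, where short entries weigh more.

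Replicate numbers are shared between genotypes. Same-numbered libraries deviated together weakly (r = 0.37, 0.08 and 0.06 over 8235 genes), and WT replicates 2 and 3 each correlated better with another number, so the numbers were not treated as pairs. With the replicate block 3 genes of the locus were called higher (Rtl1, Rian and Mirg). With 3 libraries per genotype, entries of a few counts, such as most microRNA genes here, had intervals too wide to show moderate differences.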

Other observations

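Further genes related to the locus by function were measured and gave no calls. Since edgeR called 0.587% of all genes tested, nothing is read from 0 calls in lists this short. An unadjusted p below 0.05 was reached by 11.9% of all genes tested. Of 15 partners of Begain at the postsynaptic density, all 15 were tested, with 0 called by edgeR, DESeq2 or limma-voom and 5 at an unadjusted p below 0.05 (median log2 fold change -0.03). Homer3, a scaffold of metabotropic glutamate receptors, was at 55.7 ± 10.6 CPM in WT against 41.3 ± 6.28 (-0.42, edgeR adjusted p = 0.178), and Dlgap2, a partner of PSD-95, at 4.17 ± 0.58 and 7.43 ± 2.05 (0.84, adjusted p = 0.198). Of 14 genes derived, like Rtl1, from retrotransposon Gag proteins, 12 had an entry and 7 were tested, with 0 called by any of the 3 tools, 0 at an unadjusted p below 0.05 and a median of 0.34 at low levels. Ldoc1 was at 1.37 ± 0.16 and 2.23 ± 0.70 CPM (0.69, adjusted p = 0.623) and Pnma1 at 2.48 ± 0.78 and 3.56 ± 0.97 (0.53, adjusted p = 0.656). Of 13 genes of the box C/D particle and of microRNA processing, the machineries that act on the small RNAs of Rian and Mirg, all 13 were tested, with 0 called by any of the 3 tools and 4 at an unadjusted p below 0.05 (median -0.03). Ago2, a microRNA effector, was at 102 ± 8.54 CPM against 124 ± 5.26 (0.27, adjusted p = 0.156), and Drosha, which cuts hairpins from primary transcripts, at 101 ± 5.17 and 87.5 ± 2.60 (-0.20, adjusted p = 0.336).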
